A study of Drosophila melanogaster with 12 samples.

Results

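The arrestins and the enzymes that switch off light-activated rhodopsin were followed in RNA-seq of Drosophila photoreceptor nuclei. The 8 genes, Arr1, Arr2, krz, Gprk1, Gprk2, rdgC, stops and Cam, were taken by their FlyBase identifiers from a table of 13929 genes, and all 8 passed the filter on low counts in every fit. The Rh1>ClkDN flies carried UAS-ClkDN and expressed it in outer photoreceptors. ClkDN is a dominant negative form of the circadian activator Clock that binds its partner Cycle but lacks the DNA-binding domain. The Rh1>Ctrl flies carried UAS-LacZ in place of UAS-ClkDN. Both genotypes were w mutant males with the same rh1-GAL4 driver, the ry506 allele and the nuclear tag UAS-GFP-Msp300KASH at attP2, and both were kept at 25°C in 12 h of light and 12 h of dark and frozen at Zeitgeber time (ZT) 9. The driver acts in the outer photoreceptors R1-R6, and its expression starts only shortly before the adult emerges. Each genotype was sampled at D10 and at D1, and the titles of the younger samples read day 2. Each of the 4 groups held 3 biological replicates, each of them a pool of many heads from which tagged nuclei were enriched, so 1 value averages over many cells.

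Light turns rhodopsin into active metarhodopsin, which drives the Gq protein, the phospholipase C encoded by norpA and the TRP channels until it is silenced. In the fly eye, silencing depends on the arrestins, which bind metarhodopsin and block its contact with the G protein. Arr2 is the major visual arrestin and Arr1 the minor one, which also takes part in the internalization of rhodopsin. A rhodopsin kinase, Gprk1, phosphorylates the receptor and the phosphatase encoded by rdgC, which is controlled by calcium and calmodulin, removes the phosphates, while stops encodes a SOCS-box protein that maintains the level of phospholipase C. krz encodes the non-visual arrestin of the beta-arrestin type, and Gprk2 another receptor kinase, which is best known from Hedgehog signalling. Cam encodes calmodulin, the calcium sensor that serves rdgC among many other effectors.

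Per the Ensembl annotation of BDGP6 (dm6), Arr2 is a compact gene at chr3L:8647261-8648936 on the minus strand, with 1 transcript and 3 exons. Arr1 lies at chr2L:18078269-18081307 on the plus strand, with 3 transcripts that cover 5 exon blocks. krz is at chr3R:32045314-32051993 (minus), Gprk2 at chr3R:31405245-31457873 (plus), stops at chr3R:31158156-31169106 (minus), rdgC at chr3L:20248080-20265554 (plus), Cam at chr2R:12259398-12278809 (plus) and Gprk1 at chr2R:4322295-4471060 (minus). Gprk1 is the longest of them, and its exons make up 1.69% of a span of 148766 bases, whereas exons make up 92.3% of Arr2. Arr2 sits inside Pex7 on the opposite strand without sharing exon bases, and stops sits inside Gycbeta100B on the opposite strand with 158 shared bases, 6.88% of its exons. Because the strand setting of the counting is not given in the sources used here, reads from shared stretches cannot be told apart. Gycbeta100B had 36 to 304 counts in a library and stops 1930 to 7169. Gprk2 shares 182 bases (3.88% of its exons) with PNPase on the opposite strand, and Cam shares 199 bases (3.42%) with lncRNA:CR43900 on its own strand.

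The 12 libraries held 1356529 to 5635951 counts over genes. At these depths the lowest count of any of the 8 genes was 31, for krz in replicate 2 of Rh1>Ctrl at D10. That library was the shallowest, and together with replicate 3 of Rh1>Ctrl at D1, in which 13097 genes had a count against 9933 and 10180 in its partners, it stood apart from its group. Over all tested genes the median absolute log2 difference from the other replicates was 0.67 in replicate 2 at D10 and 0.63 in replicate 3 at D1, against 0.22 to 0.56 in the other 10 libraries. Clk itself, whose reads include the transgene, ran from 4868 to 9624 CPM (counts scaled to library size with TMM factors) in the Rh1>ClkDN libraries and from 19.8 to 75.6 CPM in the Rh1>Ctrl libraries, so its reads followed the genotype labels of all 12 libraries. Among Clock targets, vri, tim and per fell in Rh1>ClkDN at both ages, with log2 fold changes of -1.90, -2.33 and -1.67 at D1 and of -2.16, -2.60 and -2.22 at D10 (edgeR adjusted p of 0.00475 or less). Pdp1 fell at D1 (-1.37, adjusted p = 0.00191), and its log2 difference of -0.94 at D10 was not called (adjusted p = 0.0870).

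**Figure D1:**
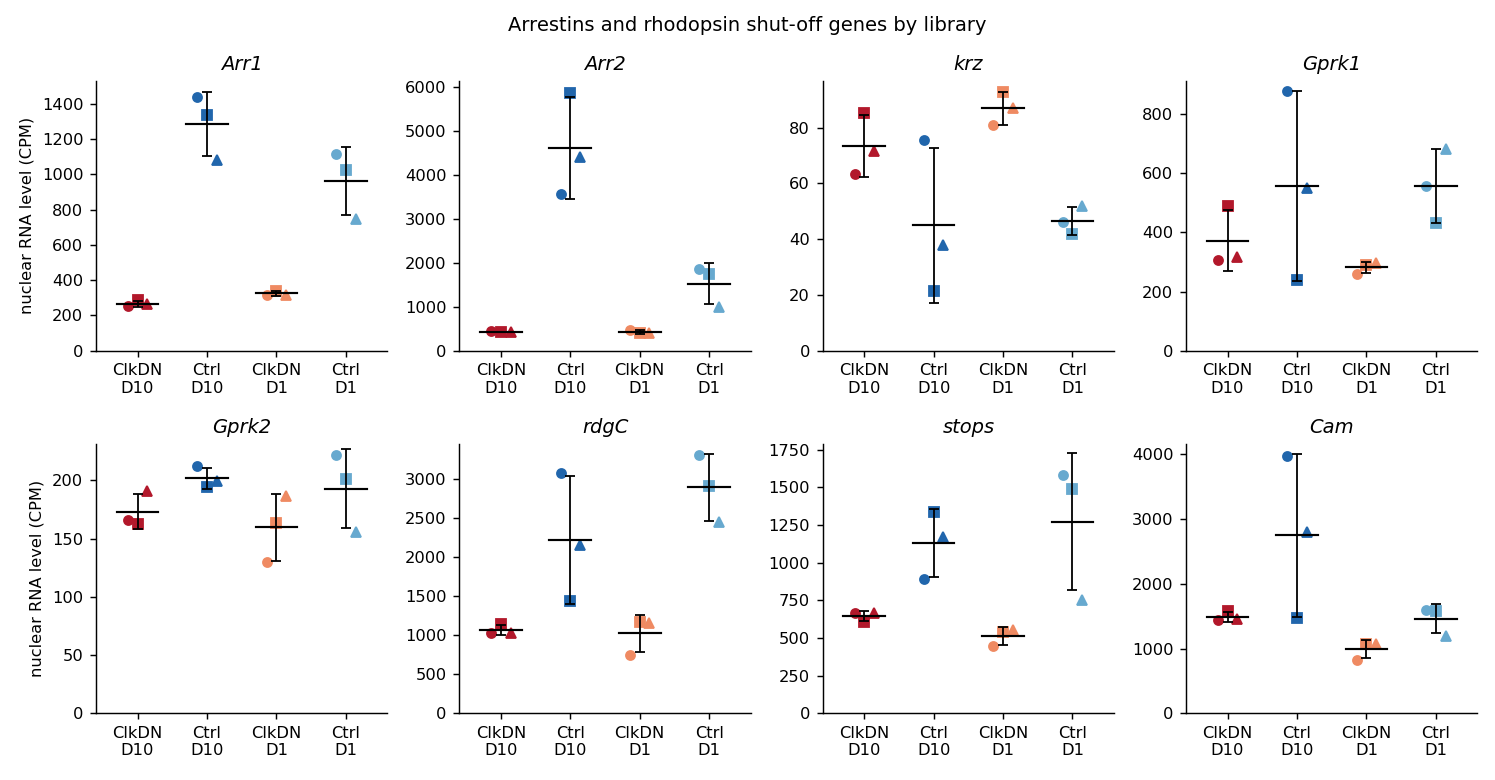
Nuclear RNA levels of the 8 genes in CPM (linear axes from 0) in each library. Circles, squares and triangles are replicates 1, 2 and 3, the long bar is the mean and the error bar 1 SD (n = 3 per group). Arr1, Arr2, rdgC and stops were lower in every Rh1>ClkDN library than in every Rh1>Ctrl library of the same age, and Arr2 reached 3572 to 5854 CPM only in Rh1>Ctrl at D10.

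At D1, 6 of the 8 genes differed between Rh1>ClkDN and Rh1>Ctrl. Both visual arrestins, the rhodopsin phosphatase rdgC, the kinase Gprk1 and stops fell by 1.92-fold to 3.45-fold, krz rose 1.93-fold, and Gprk2 and Cam did not pass the test. A gene was called where it changed more than 1.5-fold with an adjusted p below 0.05 in edgeR (quasi-likelihood test, p-values adjusted after Benjamini and Hochberg across every tested gene), and by this rule 16.1% of the 8220 tested genes were called, 10.2% as up and 5.86% as down. The median log2 fold change of the 8 genes was -1.10, against 0.04 over all tested genes. At D10, 4 of the 8 genes were called, all of them down and all of them also called down at D1: Arr2, Arr1, rdgC and stops. Of the 7875 genes tested at that age 23.5% were called, 14.5% up and 9.07% down, and the medians were -0.88 for the 8 genes and -0.03 for all tested genes. The 3 libraries of each genotype did not overlap for 7 of the 8 genes at D1 and for 5 at D10, where the same was true of 34.1% and 42.1% of all tested genes. In bulk nuclei, fewer cells of a type and less RNA per cell cannot be told apart.

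Arr2, which quenches most of the metarhodopsin in the fly eye, showed the largest difference of the 8 genes at each age. At D1 its level was 469, 404 and 397 CPM in the 3 Rh1>ClkDN libraries, against 1848, 1734 and 987 CPM in Rh1>Ctrl. The groups were well apart, although the control library with the lowest value, replicate 3, was the one that stood apart from its group. Arr2 fell by 1.79 on the log2 scale at D1 (SE 0.25, adjusted p = 0.00102 by edgeR), a 3.45-fold lower level. At D10 it was 437, 424 and 418 CPM in Rh1>ClkDN and 3572, 5854 and 4411 CPM in Rh1>Ctrl. The Rh1>ClkDN values were close to those at D1, while every control library at D10 was above every control library at D1. The difference at D10 was -3.47 on the log2 scale (SE 0.23, edgeR adjusted p = 3.4e-05), an 11.1-fold lower level, and put Arr2 at rank 2 from the lowest among 7875 tested genes. Without replicate 2 of Rh1>Ctrl at D10 the log2 difference was -3.20, and without replicate 3 of Rh1>Ctrl at D1 the difference at D1 was -2.00.

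Arr1, the minor visual arrestin, was at 317, 341 and 319 CPM in Rh1>ClkDN at D1, against 1114, 1024 and 749 CPM in Rh1>Ctrl. At D10 it was at 253, 286 and 262 CPM in Rh1>ClkDN, against 1436, 1339 and 1082 CPM in Rh1>Ctrl. The 6 Rh1>ClkDN libraries all lay below the lowest of the 6 Rh1>Ctrl libraries. Arr1 fell by 1.51 at D1 (SE 0.18, adjusted p = 0.000451) and by 2.30 at D10 (SE 0.20, adjusted p = 0.000105) on the log2 scale in edgeR, or 2.85-fold and 4.94-fold. At D10 it ranked 34 from the lowest of 7875 genes. The calls of both visual arrestins at both ages held in each of the 11 alternatives tried for each comparison.

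The non-visual arrestin krz went the other way at D1. It had 80.8, 92.9 and 86.9 CPM in Rh1>ClkDN and 46.0, 42.0 and 51.9 CPM in Rh1>Ctrl. No library of either genotype entered the range of the other, and krz rose by 0.95 on the log2 scale (SE 0.18, edgeR adjusted p = 0.00650), a call that was lost when all 12 samples were fitted together (adjusted p = 0.0797). At D10 krz had 63.5, 85.4 and 71.7 CPM in Rh1>ClkDN and 75.5, 21.5 and 37.9 CPM in Rh1>Ctrl. Replicate 1 of the control lay inside the Rh1>ClkDN range, and the log2 difference of 0.66 (SE 0.40, adjusted p = 0.278) did not pass edgeR's test. Without that library the difference was 1.25 with an adjusted p of 0.0144, and without the shallow replicate 2 it was 0.43 with an adjusted p of 0.229.

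Of the receptor kinases, Gprk1 was called at D1 and Gprk2 at neither age, and the difference between these genes was not tested. Gprk1, which phosphorylates rhodopsin, had 259, 288 and 296 CPM in Rh1>ClkDN at D1, against 556, 431 and 683 CPM in Rh1>Ctrl. The genotypes did not overlap, and Gprk1 fell by 0.94 on the log2 scale (SE 0.20, edgeR adjusted p = 0.00953). Leaving out replicate 2 or replicate 3 of Rh1>ClkDN ended the call (adjusted p = 0.0572 and 0.0545), as did the fit of all 12 samples (adjusted p = 0.0746). At D10 Gprk1 had 307, 490.3 and 317 CPM in Rh1>ClkDN, against 879, 240.3 and 549.9 CPM in Rh1>Ctrl. The control values spread so far that the shallow replicate 2 lay under every Rh1>ClkDN library, and the log2 difference of -0.62 (SE 0.42, adjusted p = 0.327) was not called in edgeR. Without that library it was -0.91 with an adjusted p of 0.00721, and without replicate 1, the highest control, it was -0.10 with an adjusted p of 0.854.

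Gprk2, the kinase of Hedgehog signalling, stayed within a narrow band of 129.7 to 222 CPM over all 12 libraries. It had 129.7, 163 and 187 CPM in Rh1>ClkDN at D1 and 222, 201 and 155 CPM in Rh1>Ctrl, and the genotypes overlapped. The log2 difference was -0.23 at D1 (SE 0.18, adjusted p = 0.480) and -0.26 at D10 (SE 0.18, adjusted p = 0.343), neither of them called by edgeR. At D10 the levels were 166, 163 and 191 CPM in Rh1>ClkDN and 212, 195 and 199 CPM in Rh1>Ctrl. These did not overlap, but the highest Rh1>ClkDN library lay close under the lowest control.

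rdgC, the phosphatase that counters the rhodopsin kinase, had 747, 1171 and 1149 CPM in Rh1>ClkDN at D1, against 3305, 2907 and 2446 CPM in Rh1>Ctrl. It fell by 1.46 on the log2 scale (SE 0.20, edgeR adjusted p = 0.000901), and the groups were far apart. At D10 its levels were 1029, 1139 and 1021 CPM in Rh1>ClkDN and 3067, 1433 and 2157 CPM in Rh1>Ctrl. The lowest control value, from the shallow replicate 2, came near the Rh1>ClkDN libraries without reaching them. rdgC fell by 1.10 at D10 (SE 0.27, adjusted p = 0.0190).

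stops, which keeps up phospholipase C, had 446, 543 and 550.3 CPM in Rh1>ClkDN at D1, against 1579, 1487 and 752 CPM in Rh1>Ctrl. At D10 it had 665, 609 and 669 CPM in Rh1>ClkDN, against 889.5, 1337 and 1173 CPM in Rh1>Ctrl. Neither age showed overlap, and the lowest control value at D1 again came from replicate 3. stops fell by 1.26 at D1 (SE 0.26, adjusted p = 0.00819) and by 0.84 at D10 (SE 0.20, adjusted p = 0.0156) on the log2 scale in edgeR. The D10 calls of rdgC and stops were the less firm ones. They were lost without any single Rh1>ClkDN library (adjusted p of 0.114 to 0.137 for rdgC and 0.143 to 0.163 for stops) or without replicate 3 of Rh1>Ctrl (0.0558 and 0.0719), and 2 of the 8 genes, Arr1 and Arr2, were then called. Over these and the other alternatives the log2 difference stayed between -1.26 and -0.77 for rdgC and between -0.98 and -0.64 for stops.

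Cam, which encodes calmodulin, had 829, 1069.9 and 1076 CPM in Rh1>ClkDN at D1, against 1594, 1583 and 1200 CPM in Rh1>Ctrl. The groups did not overlap, but the log2 difference of -0.51 (SE 0.17, adjusted p = 0.0774) was not called. At D10 Cam had 1434, 1581 and 1452 CPM in Rh1>ClkDN, against 3968, 1466 and 2801 CPM in Rh1>Ctrl. The shallow replicate 2 of the control fell among the Rh1>ClkDN libraries, and the log2 difference of -0.92 (SE 0.32, adjusted p = 0.0706) was not called in edgeR. Cam was called down at D1 without replicate 3 of Rh1>Ctrl (-0.61, adjusted p = 0.00164) and at D10 without replicate 2 (-1.15, adjusted p = 6.95e-05) or in the fit of all 12 samples (-0.88, adjusted p = 0.0401). Without replicate 1 of Rh1>Ctrl at D10 the difference was -0.53 with an adjusted p of 0.14.

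**Figure D2:**
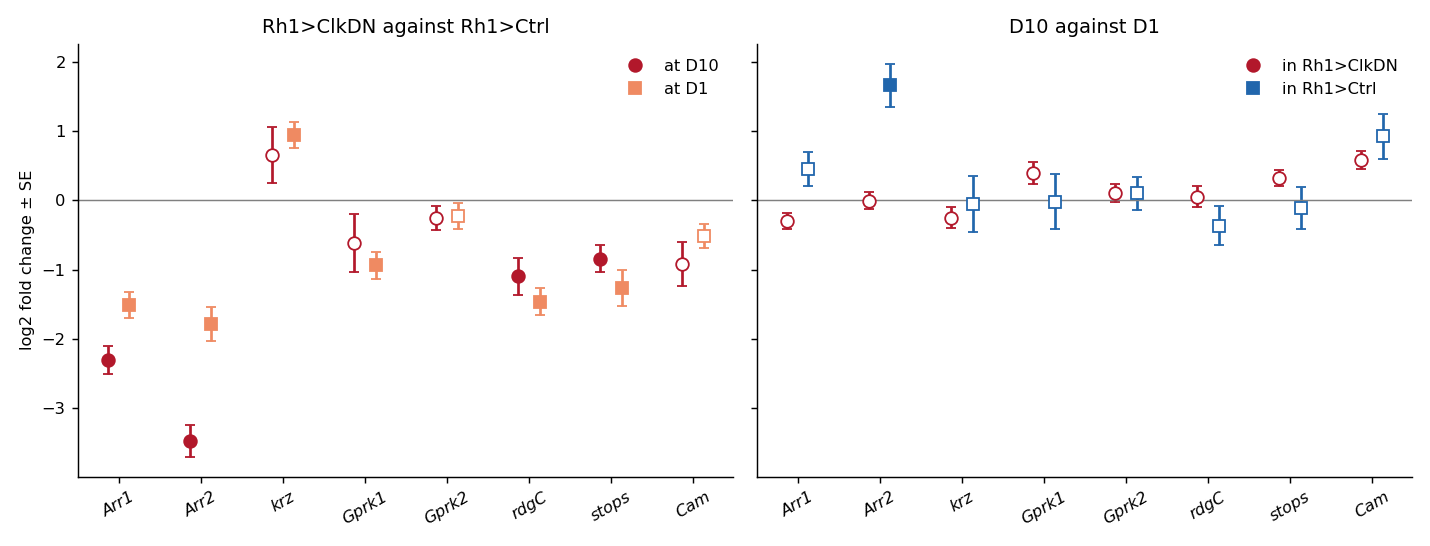
Log2 fold changes of the 8 genes with their standard errors from edgeR. The left panel sets Rh1>ClkDN against Rh1>Ctrl at D10 (circles) and at D1 (squares), and the right panel D10 against D1 in Rh1>ClkDN (circles) and in Rh1>Ctrl (squares). Filled symbols changed more than 1.5-fold with an adjusted p below 0.05, and the lowest point is Arr2 at D10, at -3.47.

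Markers of the cells in the eye also moved with genotype. The 7 outer photoreceptor markers (ninaE, chp, trp, norpA, inaD, gl and Pph13) summed to 18157 to 24260 CPM in Rh1>ClkDN and 39337 to 68704 CPM in Rh1>Ctrl at D1, and to 25517 to 26533 CPM and 54635 to 69508 CPM at D10. Of them 6 were called down at D1 and 7 at D10, with median log2 fold changes of -1.64 and -1.67. For this and the following lists, the shares over all tested genes were 5.86% down and 10.2% up at D1. At D10 they were 9.07% down and 14.5% up. The 6 inner photoreceptor markers summed to 398 to 568 CPM in Rh1>ClkDN and 236 to 278 CPM in Rh1>Ctrl at D1, with 1 called up, and to 462 to 479 CPM and 279 to 424 CPM at D10, with 0 called. Most of this sum was pros, at 358 to 426 CPM in Rh1>ClkDN and 206 to 228 CPM in Rh1>Ctrl at D1, and at 374.5 to 413 CPM and 206 to 331 CPM at D10. The 6 glial markers summed to 899 to 960.0 CPM in Rh1>ClkDN and 187 to 266 CPM in Rh1>Ctrl at D1, with 3 called up, and to 1422.5 to 1515 CPM and 290 to 337 CPM at D10, with 2 called up. Eaat1, a glutamate transporter, made up most of the glial sum in Rh1>ClkDN, at 545 to 578 CPM at D1 and 1241 to 1317 CPM at D10. In Rh1>Ctrl it was the smaller part, at 46.2 to 71.8 CPM at D1 and 53.3 to 107 CPM at D10. Without Eaat1 the sums at D1 were 338 to 415 CPM in Rh1>ClkDN and 141 to 194 CPM in Rh1>Ctrl. At D10 they were 181 to 200.4 CPM and 211 to 272 CPM. Pigment and cone cell markers summed to 2732 to 2901 CPM in Rh1>ClkDN and 588 to 1211 CPM in Rh1>Ctrl at D1, with 2 called up, and to 3385 to 3901 CPM and 1143 to 1403 CPM at D10, with 1 called up. Nearly all of this was w, the marker gene carried by the GFP-tag construct that all flies share and by UAS-ClkDN and UAS-LacZ lines of the study, and without w the sums were 167 to 321 CPM and 106 to 158 CPM at D1, and 124 to 129 CPM and 152 to 208 CPM at D10. Median log2 fold changes at D1 and D10 were 0.99 and -0.43 for the glial markers and 0.69 and -0.31 for the pigment and cone cell markers. For the inner photoreceptor markers they were 0.94 and -0.02, the latter over 5 tested markers. No marker in any of these lists was at 0 in every library, and the part of the markers in the results for the 8 genes was not tested.

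Between D10 and D1, 1 of the 8 genes was called in Rh1>Ctrl and 0 in Rh1>ClkDN. Each ageing comparison uses the same libraries as the genotype comparisons, so its values are not independent of those above. In Rh1>Ctrl, D10 against D1, only Arr2 of the 8 was called, with levels of 3572, 5854 and 4411 CPM at D10 and 1848, 1734 and 987 CPM at D1. It rose by 1.66 on the log2 scale (SE 0.31, edgeR adjusted p = 0.0456), 3.15-fold. By the same rule 0.705% of 7239 tested genes were called in this comparison and 0.318% were called up, and Arr2 was the 1 gene of the 8 whose ages did not overlap, where 18.1% of all tested genes did not. The call was lost without replicate 1, 2 or 3 of Rh1>Ctrl at D1 (adjusted p = 0.250, 0.284 and 0.155) and without replicate 3 at D10 (0.220), while the log2 change stayed between 1.35 and 1.84.

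Of the other 7 genes in Rh1>Ctrl, Cam had the next largest change, 0.92 on the log2 scale (SE 0.32, adjusted p = 0.292), and passed only without replicate 2 at D10 (1.17, adjusted p = 0.0185). Arr1 had 1436, 1339 and 1082 CPM at D10 and 1114, 1024 and 749 CPM at D1. The ages overlapped, and the log2 change of 0.45 (SE 0.25, adjusted p = 0.529) did not pass. krz, Gprk1, Gprk2, rdgC and stops lay between -0.37 and 0.10 with adjusted p of 0.687 or more in edgeR.

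In Rh1>ClkDN, 0 of the 8 genes were called between D10 and D1 by edgeR, and 0 by DESeq2, although 14.6% of 8451 tested genes were called. Of the 8, 4 had an unadjusted p under 0.05, as did 2544 of the tested genes. The ages did not overlap for 4 of the 8 and for 33.8% of all tested genes. Arr2 had 437, 424 and 418 CPM at D10 and 469, 404 and 397 CPM at D1, and these overlapped, with a log2 change of -0.00424 (SE 0.12, adjusted p = 0.988). Cam came closest to a call, with 1434, 1581 and 1452 CPM at D10 and 829, 1069.9 and 1076 CPM at D1. All 3 libraries at D10 were higher, and the change of 0.58 on the log2 scale (SE 0.13, edgeR adjusted p = 0.00532) was 1.49-fold, just under the 1.5-fold threshold. It was over the threshold without replicate 2 or 3 at D1 or without replicate 1 or 3 at D10 (0.61 to 0.63). Arr1 at -0.30, Gprk1 at 0.39 and stops at 0.33 had adjusted p of 0.0763, 0.110 and 0.0667.

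Whether the genotype difference itself changed with age was tested with an interaction term over all 12 libraries, the log2 difference at D10 minus that at D1. The term was largest for Arr2, -1.59 on the log2 scale (SE 0.36, edgeR adjusted p = 0.0546), just outside the threshold, and was -0.70 for Arr1 (SE 0.30, adjusted p = 0.337). None of the 8 genes was called by edgeR, 2 had an unadjusted p under 0.05, and 1, Arr2, was called by DESeq2 (-1.60, adjusted p = 0.00102). Across 9135 genes tested by edgeR 0.613% were called, and 1167 had an unadjusted p under 0.05. Arr2 was also called with scaling to total counts only (-1.72, adjusted p = 0.0173) and without replicate 1 or 3 of Rh1>Ctrl at D1 (-1.77 and -1.35) or replicate 1 or 2 of Rh1>Ctrl at D10 (-1.77 and -1.38). In the other 10 of the 16 alternatives Arr2 was not called. The edgeR adjusted p was 0.0681 with no filter and 0.0944 with the replicate block. It was 0.0671 without replicate 2 of Rh1>Ctrl at D1 and 0.121 without replicate 3 of Rh1>Ctrl at D10. Without any single Rh1>ClkDN library it was 0.126 to 0.176. For krz, Gprk1, Gprk2, rdgC, stops and Cam the term lay between -0.33 and 0.50 with adjusted p of 0.633 or more.

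To set the genes beside each other, CPM were divided by the length of the exons in kilobases. Arr2 had the highest level per kilobase in 3 of the 4 groups, at 2982 ± 746 CPM per kb in Rh1>Ctrl at D10, 985 ± 302 in Rh1>Ctrl at D1 and 274 ± 25.9 in Rh1>ClkDN at D1 (SD, n = 3 each). In Rh1>ClkDN at D10 it had 276 ± 6.04 CPM per kb and stood behind stops at 282 ± 14.4, and these 2 overlapped. Arr2 and stops, which came next, also overlapped in Rh1>Ctrl at D1, so the first place is not resolved there. Among 9082 tested genes with an annotated length, Arr2 ranked 82 in Rh1>ClkDN and 7 in Rh1>Ctrl at D10, and 80 in Rh1>ClkDN and 16 in Rh1>Ctrl at D1. Arr1 ranked 255 in Rh1>ClkDN and 31 in Rh1>Ctrl at D10, and 203 in Rh1>ClkDN and 63 in Rh1>Ctrl at D1.

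At the lower end the order was the same everywhere. krz was last, with 13.9 ± 2.10 CPM per kb in Rh1>ClkDN and 8.51 ± 5.24 in Rh1>Ctrl at D10, and Gprk2 was seventh, with 36.9 ± 3.22 and 43.0 ± 1.92, and in every group Gprk2 overlapped neither krz nor Gprk1 or Arr1, its neighbours in the order. Between these ends, rdgC, stops and Cam each overlapped a neighbour in every group. In Rh1>Ctrl at D10, Arr1, stops, Cam, rdgC and Gprk1 followed Arr2 in that order and each overlapped the next, so their order is not resolved there. In Rh1>ClkDN at D10 Arr1 was sixth, at 108 ± 6.77 CPM per kb, below all 3 libraries of Gprk1, while in Rh1>Ctrl at D10 it was second.

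**Figure D3:**
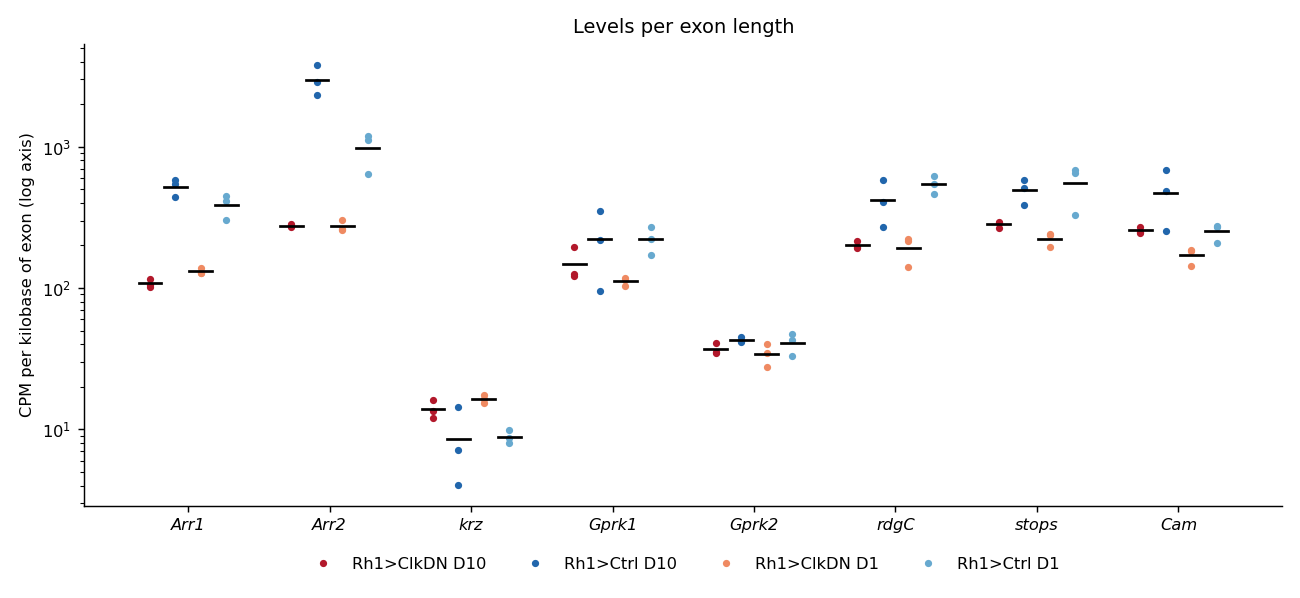
Levels of the 8 genes per kilobase of exon (CPM per kb, log axis). Each point is a library and the short bar is the mean of the 3 libraries of a group. Arr2 is highest in Rh1>Ctrl at D10, at 2982 CPM per kb on average, and krz is lowest in every group.

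The balance between the arrestins was read from counts within each library, which needs no scaling between libraries. For each count of Arr1, Rh1>ClkDN had 1.72, 1.48 and 1.60 counts of Arr2 at D10, and Rh1>Ctrl had 2.49, 4.37 and 4.08. At D1 the ratios were 1.48, 1.18 and 1.25 in Rh1>ClkDN and 1.66, 1.69 and 1.32 in Rh1>Ctrl. The controls at D10 therefore stood above all other libraries, and at D1 the genotypes overlapped. In group means the ratio was 1.60 ± 0.12 in Rh1>ClkDN and 3.646 ± 1.015 in Rh1>Ctrl at D10, and 1.30 ± 0.16 and 1.56 ± 0.21 at D1 (SD, n = 3 each).

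The ratio of the visual arrestin Arr1 to the non-visual krz separated the genotypes at both ages. It was 3.66 ± 0.32 in Rh1>ClkDN and 36.6 ± 22.8 in Rh1>Ctrl at D10, and 3.75 ± 0.15 and 21.0 ± 5.70 at D1 (SD, n = 3 each). The lowest control library, at 14.4, was above the highest Rh1>ClkDN library, at 3.99, and the largest value, 62.35, came from the shallow replicate 2 of Rh1>Ctrl at D10, where krz had 31 counts. The kinases were less far apart, and their ratio overlapped between the genotypes at D10 but not at D1. Gprk1 had 2.17 ± 0.73 counts per count of Gprk2 in Rh1>ClkDN and 2.72 ± 1.46 in Rh1>Ctrl at D10, and 1.79 ± 0.21 and 3.02 ± 1.21 at D1.

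**Figure D4:**
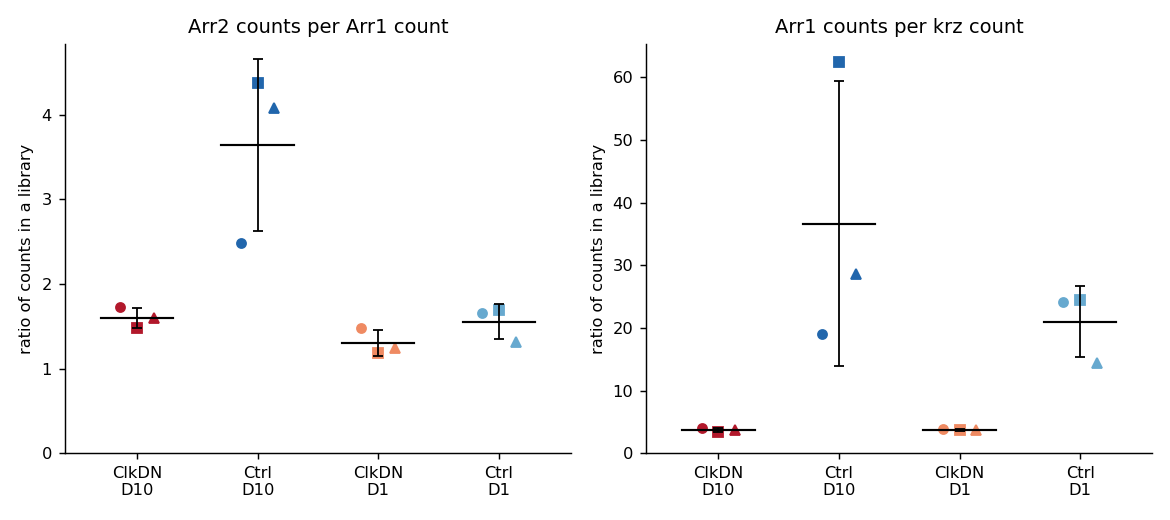
Counts of Arr2 per count of Arr1 (left) and of Arr1 per count of krz (right) within each library, on linear axes from 0. Circles, squares and triangles are replicates 1, 2 and 3, with the mean and 1 SD (n = 3 per group). The Arr2 to Arr1 ratio was 2.49 to 4.37 in Rh1>Ctrl at D10 and 1.72 or less elsewhere.

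The genes whose log2 CPM followed each of the 8 most closely over the 12 libraries were found by the root mean square difference after each gene was centred on its own mean, among 9134 other genes. Arr2 was closest to ninaE, which encodes its receptor Rh1, at 0.22, whereas the median distance of Arr2 to all genes was 1.61. ninaE averaged 1152 ± 16.8 CPM in Rh1>ClkDN and 9815 ± 306 CPM in Rh1>Ctrl at D10, and 1119.6 ± 4.95 and 4215 ± 1554 CPM at D1 (SD, n = 3 each). It fell at both ages, with log2 fold changes of -3.13 at D10 (SE 0.17) and -1.86 at D1 (SE 0.28) in edgeR. Lpin at 0.46 and btsz at 0.50 came next after ninaE.

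Arr1 was closest to Ak1 at 0.20, to the Clock target vri at 0.21 and to Pkn at 0.22, and its distance from Arr2 was 0.60. rdgC was closest to qm at 0.12 and tws, a regulatory subunit of the phosphatase PP2A, at 0.13, then to CG6966 at 0.16. krz was closest to Gbeta13F, a G protein beta subunit, at 0.18, then to chinmo and tacc. Gprk1 was closest to Crk, uex and CG4631 (0.19 to 0.21), Gprk2 to mlt, emb and Orp8 (0.12 to 0.13), stops to CG42327, cyst and Ankle2 (0.14 to 0.15) and Cam to NK7.1, kermit and Cdc14 (0.15 to 0.23). Among the 8 genes the closest pairs were Gprk1 and rdgC, at 0.436, and rdgC and stops, at 0.438. The most distant pair was Arr2 and krz, at 1.95. All these distances are descriptions over the same 12 libraries, with shared depth and shared groups, and carry no test.

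The partners of arrestin and the machinery that removes rhodopsin from the membrane formed a list of 14 genes, all tested. At D1, 2 of them were called down and 0 up, and at D10, 5 were called down and 0 up, with median log2 fold changes of -0.25 and -0.44. Of all tested genes, 5.86% were called down at D1 and 9.07% at D10. The myosin ninaC, which binds calmodulin and is needed for a normal end of the light response, averaged 4440.2 ± 93.1 CPM in Rh1>ClkDN and 11199 ± 1289 CPM in Rh1>Ctrl at D10, and 4846 ± 794 and 13050 ± 3119 CPM at D1. It fell at both ages, with log2 fold changes of -1.37 at D10 (SE 0.17, edgeR adjusted p = 0.000678) and -1.39 at D1 (SE 0.23, adjusted p = 0.00246). Culd, a receptor-like protein known to act in the turnover of Rh1 and Arr1, fell at both ages, with log2 fold changes of -1.25 at D10 (SE 0.25) and -0.85 at D1 (SE 0.23). The calls at D10 also took in the clathrin heavy chain Chc (-0.82, SE 0.18), the adaptor subunit AP-2mu (-1.42, SE 0.40) and the retromer subunit Vps35 (-0.86, SE 0.22). AP-2mu was low, at 6.89 ± 2.45 CPM in Rh1>ClkDN and 18.0 ± 5.59 CPM in Rh1>Ctrl at D10 (edgeR adjusted p = 0.0324). Other subunits of that adaptor, AP-2alpha (-0.21, SE 0.24) and AP-2sigma (-0.26, SE 0.62), were not called at D10. CaMKII, which phosphorylates Arr2, had log2 differences of 0.44 at D10 (SE 0.46) and 0.04 at D1 (SE 0.16), neither called. The dynamin gene shi was lower at D10 than at D1 in Rh1>ClkDN, by a log2 change of -1.02 (SE 0.13, edgeR adjusted p = 7.38e-05). It was the only gene of the 14 called in either ageing comparison. Of all tested genes, 14.6% were called in Rh1>ClkDN ageing and 0.705% in Rh1>Ctrl ageing.

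The genes of light-activated signalling were counted beside the shut-off genes. Of 13 such genes, 9 were called down and 1 up at D1, and 8 down and 0 up at D10, with median log2 fold changes of -0.86 and -1.06. Among them ninaE, trp, norpA and inaD were also outer photoreceptor markers above, so these counts are not independent of the marker counts. Over all tested genes the shares were 5.86% down and 10.2% up at D1, and 9.07% down and 14.5% up at D10. The largest falls were those of ninaE at D10 and of trpl at D1, where trpl changed by -2.89 (SE 0.29). Ggamma30A, the gamma subunit of the visual G protein, rose by 0.65 at D1 (SE 0.19, edgeR adjusted p = 0.0485). At D10 it had 13833 ± 1207 CPM in Rh1>ClkDN and 7782 ± 4468 CPM in Rh1>Ctrl (SD, n = 3 each) and was not called by edgeR (adjusted p = 0.199). The diacylglycerol kinase gene rdgA, with 24838 ± 1693 CPM in Rh1>ClkDN and 17230 ± 1292 CPM in Rh1>Ctrl at D10, was called at neither age, and nor were the protein kinase C genes inaC and Pkc53E. Galphaq, the alpha subunit, was called down at D1 but not at D10 (edgeR adjusted p = 0.294). Arr2 at D10, at -3.47, lay below all 13 of these genes, and krz, at 0.95 at D1, above all of them at that age.

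**Figure D5:**
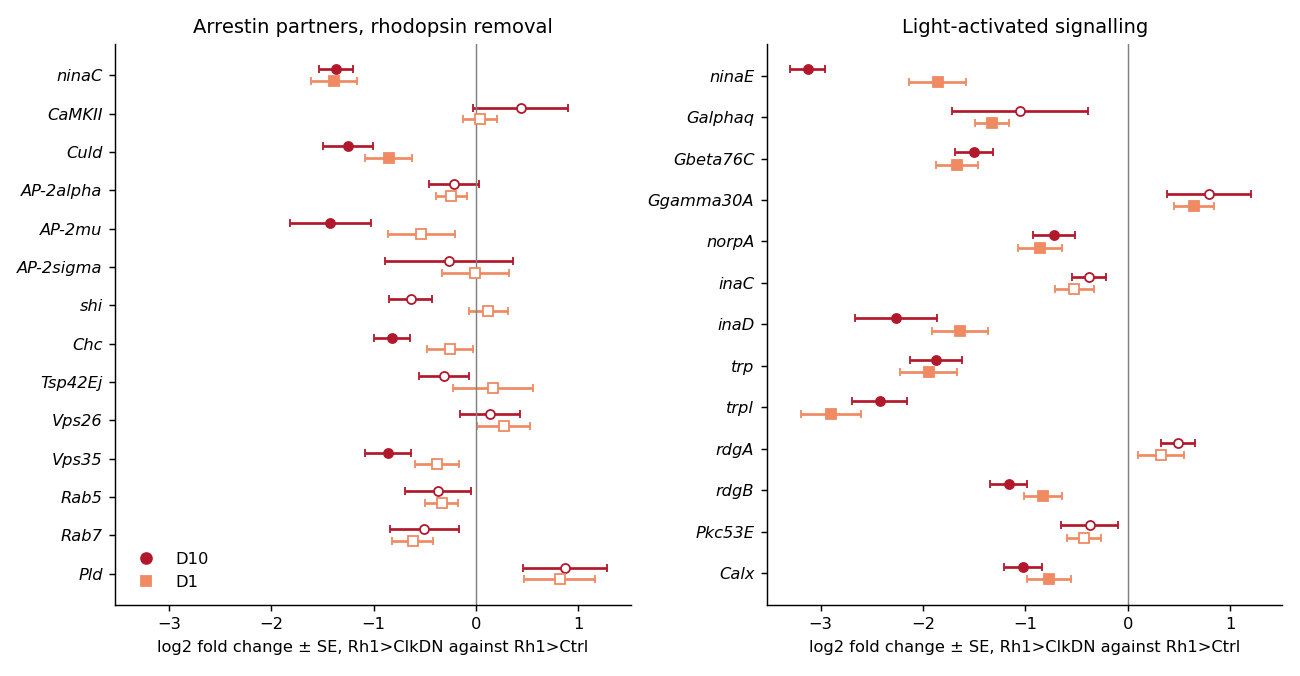
Log2 fold changes of Rh1>ClkDN against Rh1>Ctrl with standard errors from edgeR for the 14 arrestin partners and rhodopsin removal genes (left) and the 13 genes of light-activated signalling (right), at D10 (circles) and D1 (squares). Filled symbols changed more than 1.5-fold with an adjusted p below 0.05. ninaE at D10, at -3.13, is the lowest point, and Ggamma30A at D1 is the 1 filled point above 0.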

How the data were processed

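The authors deposited 1 table of counts per gene for the 12 samples, under a name that calls them normalized. All values were whole numbers and the totals differed 4.16-fold, so they were used as raw counts. The submitters' processing notes name Trimmomatic, STAR, SAMtools and DESeq2 and the builds dm6 and BDGP6. The annotation release and the strand setting of the counting are not given in the sources used here. Titles gave the genotype and age of each sample, and all 12 columns were used.

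Groups were compared pair by pair, each in a fit of its own 6 samples, with edgeR 4.0.16 (R 4.3.3), TMM factors and the quasi-likelihood test. Genes needed 10 counts or more in 3 or more of the samples fitted. P-values were adjusted by Benjamini-Hochberg over all genes tested, and a call needed a change of more than 1.5-fold at an adjusted p below 0.05, or for the interaction term an adjusted p below 0.05. The standard error was taken from the fold change and its F statistic. CPM used TMM factors over all 12 samples, and lengths and positions came from Ensembl release 115. The fit of the genotypes at D1 was tested on simulated data. Alternatives were DESeq2 1.42.0, scaling to total counts only, no filter, 1 fit of all 12 samples, a replicate block and leaving out each replicate. The 8 genes, the gene lists and the markers were chosen with earlier results of these data known. Genes named outside the 8 were the called arrestin partners, ninaE and the 3 genes nearest to each of the 8 on log2(CPM + 1), and others were chosen after their values were seen. Sequences of the genes and their promoters were not analysed here.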

Additional observations from a re-analysis of the deposited data

How the results depend on the processing

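Over the 40 log2 changes of the 8 genes and their 480 refits, 425 kept direction and side of the threshold, 18 calls were lost, 16 were gained and 21 changed sign, none of these last in a value that was called, and the cause was not tested. Leaving out 1 library at a time gave 748 to 2206 called genes for the genotype comparison at D1, against 1324, with 5 to 7 of the 8 genes called, and 552 to 2450 at D10, against 1852, with 2 to 6 of the 8. In Rh1>Ctrl ageing it gave 1 to 171 genes, against 51, with 0 to 2 of the 8, in Rh1>ClkDN ageing 834 to 1540, against 1235, with 0 to 1, and for the interaction 12 to 117, against 56, with 0 to 1. Rh1>Ctrl ageing gave 189 genes in DESeq2, 147 with no filter and 235 in the fit of all 12 samples, which gave 287 for Rh1>ClkDN ageing. The interaction gave 108 genes with scaling to total counts, 56 up and 52 down, in place of 39 and 17, then 269 in DESeq2 and 105 with no filter, and 1 of the 8, Arr2, in DESeq2 and with scaling to total counts.

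With the replicate number as a block, the D10 genotype comparison gave 1096 genes and 2 of the 8, without rdgC (-1.03, adjusted p = 0.0575) and stops (-0.82, adjusted p = 0.0641), and the interaction 30 genes. The correlation of same-numbered deviations was -0.11 to 0.04, and in most cases a sample correlated best with another number. These correlations cannot tell whether same-numbered samples were collected or processed together. The log2 change of Arr2 in Rh1>ClkDN ageing was 0.00238 with the block and 0.0107 in the fit of all 12 samples.

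Of the values that changed sign, that for Gprk1 in Rh1>Ctrl ageing was 0.0417 with no filter and 0.00240 in the fit of all 12 samples, and for the Gprk2 interaction it was -0.000542 with scaling to total counts. Leaving out 1 library gave, in Rh1>Ctrl ageing, -0.59 to 0.21 for krz, -0.47 to 0.29 for Gprk1, -0.0483 to 0.11 for Gprk2 and -0.42 to 0.0648 for stops. In Rh1>ClkDN ageing it gave -0.0650 to 0.11 for Arr2 and -0.10 to 0.14 for rdgC, and for the interaction -0.51 to 0.34 for krz, -0.0797 to 0.20 for Gprk2 and -0.63 to 0.0171 for Cam.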

Other observations

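Calmodulin acts through kinases and the phosphatase calcineurin, and 3 genes of the calcineurin group rose in Rh1>ClkDN at D1. Of 10 calmodulin effectors and relatives, 9 were found by symbol, all but Camta, which was not examined, and 7 were tested. Of these 7, 3 were called up and 0 down at D1, and 1 up and 0 down at D10. The median log2 fold changes were 0.50 and 0.29. The calcineurin catalytic gene CanA-14F averaged 446 ± 42.6 CPM in Rh1>ClkDN and 136 ± 76.8 CPM in Rh1>Ctrl at D10, and 385 ± 64.8 and 119 ± 13.5 CPM at D1 (SD, n = 3 each). It rose by 1.67 at D10 (SE 0.36, edgeR adjusted p = 0.0112) and by 1.73 at D1 (SE 0.17, adjusted p = 0.000113). A related catalytic gene, Pp2B-14D, rose by 1.04 at D1 (SE 0.21), and the regulatory subunit gene CanB by 0.93 (SE 0.23), with log2 differences of 0.48 and 0.20 at D10 that were not called. The share of all tested genes called up was 10.2% at D1 and 14.5% at D10.

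The signalling partners of krz and Gprk2 outside the eye, 10 genes of the Notch, Hedgehog and ERK pathways, had group means of 242 to 351 CPM for rl, 121 to 133 CPM for Su(dx) and 3.09 to 45.0 CPM for the other 8. At D1 edgeR called 0 of the 10, with 4 at an unadjusted p under 0.05, and DESeq2 called 1. Of all 8220 genes tested by edgeR at D1, 16.1% were called and 2364 had an unadjusted p under 0.05. At D10 edgeR called 1 up and 1 down, ci, the transcription factor of Hedgehog signalling, at 1.73 (SE 0.47) and cos, a kinesin of the same pathway, at -1.17 (SE 0.35), where 23.5% of all tested genes were called. In Rh1>ClkDN ageing smo, whose product is phosphorylated by Gprk2, was lower at D10 than at D1 with a log2 change of -0.83 (SE 0.25), as was Su(fu) with -0.75 (SE 0.20), where 14.6% of all tested genes were called. In Rh1>Ctrl ageing the change of smo was of like size, -0.92 (SE 0.38), but was not called (edgeR adjusted p = 0.393). Its interaction term was 0.08 (adjusted p = 0.968). For Su(fu) the change in Rh1>Ctrl was 0.69 (SE 0.49), also not called, and the interaction term was -1.34 (adjusted p = 0.304). These genes were named after their values were seen.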
